A study of Homo sapiens with 6 samples.

Results

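Of the 72537 regions that hold a 6mA peak in at least 1 library of MDA-MB-453 cells, 12124 were called in all 4 immunoprecipitated libraries. These regions, the members described here, lay on chromosomes 1 to 22 and X. They were found by merging the peaks of the 4 lists wherever they overlapped by at least 1 bp, and by keeping the merged regions with a peak of each library. Another 8 such regions lay on other chromosomes and were left out. MDA-MB-453 is an established human breast cancer cell line. The cells received 10 nM of a control siRNA or of an siRNA against N6AMT1 (si-N6AMT1), and DNA was taken at 48 h. Each group had 2 immunoprecipitated libraries, given as biological replicates, and 1 input library without immunoprecipitation. The groups therefore differ by a transient transfection of 1 siRNA in 1 line, and the level of N6AMT1 in these cells was not analysed here.

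N6-methyladenine (6mA) carries a methyl group on the amino nitrogen of adenine in DNA. It is common in bacteria, where it marks the cell's own DNA for restriction systems, and its amount in mammalian DNA is debated. N6AMT1 was examined by the study as an enzyme that places this mark. In 6mA-IP-seq, sheared and denatured DNA is captured with a 6mA antibody, and a peak is a stretch with more fragments than the local background. An antibody peak gives the place of captured fragments and not the modified base.

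The strongest members showed what many of these regions share, which is DNA written in few letters. Shown first are 3 of the 10 members with the highest fold enrichment in their weakest library. Each is given as 100 bases around the median of its 4 library summits, on the plus strand of GRCh37 (hg19). On chromosome 3 the summits of control replicates 1 and 2 stood at 592 and -186 bp from that median. Those of si-N6AMT1 replicates 1 and 2 stood at -162 and 162 bp. In this order, the offsets were -309, 705, 11 and -11 bp on chromosome 5, and -181, 51, 2 and -2 bp on chromosome 17. The printed bases are thus not always those under a library's summit. Capitals mark the longest stretch made of only A and C, only G and T, only A and G, or only C and T.
chr17:74544130-74544229: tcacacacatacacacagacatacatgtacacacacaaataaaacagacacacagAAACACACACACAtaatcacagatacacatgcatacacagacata
chr3:129088899-129088998: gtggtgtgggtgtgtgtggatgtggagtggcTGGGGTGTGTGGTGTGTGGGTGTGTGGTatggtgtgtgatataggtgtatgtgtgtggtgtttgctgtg
chr5:1199005-1199104: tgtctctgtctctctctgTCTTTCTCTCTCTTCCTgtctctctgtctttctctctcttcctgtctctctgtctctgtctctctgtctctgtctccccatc

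The region on chromosome 17 lay in an intron that CYGB and PRCD, the gene of a photoreceptor disc component, share with an unnamed noncoding gene. It had fold enrichments of 27.3 and 21.2 (control) against 20.3 and 22.2 (si-N6AMT1). The fold enrichment is the fragment pileup at the summit over the local background, with 1 added to each by the peak caller. The intergenic region on chromosome 3 had 23.9, 18.6, 20.6 and 19.4, given here and from here on in the order control replicates 1 and 2, then si-N6AMT1 replicates 1 and 2. The intergenic region on chromosome 5 had 18.8, 20.9, 22.9 and 19.96. The groups overlapped in the regions on chromosomes 3 and 5, and on chromosome 17 control replicate 1 stood above the rest. The 10 members that ranked highest had 18.3 to 20.3 in their weakest library, and 4 of them lay within 5 Mb of 1 end of chromosome 5.

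The next pair shows a strong member with each of the more frequent dinucleotide repeats, as 100 bases around the repeat, near its median summit. Capitals mark a CA repeat and a GA repeat.
chr21:45024495-45024594: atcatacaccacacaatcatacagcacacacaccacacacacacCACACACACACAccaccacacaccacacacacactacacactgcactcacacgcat
chr14:29578022-29578121: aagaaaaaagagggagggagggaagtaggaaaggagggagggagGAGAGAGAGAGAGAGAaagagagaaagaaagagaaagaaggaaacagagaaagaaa

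The CA repeat lay in an intron of HSF2BP, a gene of meiotic recombination, with fold enrichments of 27.6, 21.2, 23.3 and 18.5. The GA repeat, in an intron of an unnamed noncoding gene, had 16.6, 16.9, 17.3 and 15.8. The strongest member with a run of A, in an intron of CSTPP1, had 19.1, 15.7, 16.4 and 16.3. The strongest of the few members with an AT repeat, in an intron of PSD2, had 11.7, 11.4, 12.4 and 12.8. The strongest member with the motif CAGGCTGG, which was intergenic, was also weaker than the first 3, at 13.8, 11.8, 15.3 and 12.3. Its library summits stood at 1328, -329, 330 and -428 bp from their median. None of them lay in the 200-bp window on that median, which held the motif, so these values were read beside it. In the 200-bp window on the median summit, the number of distinct 4-letter words was 128 for the motif member, against 21 for the GA repeat.

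Members were chosen by the peak calls, which rest on −log10 p, so the strength of their peaks is a description. Their median fold enrichments were 8.84 and 8.39 (control) against 8.45 and 8.25 (si-N6AMT1). For regions called in 1 library the medians were 6.46 and 6.10 (control) against 6.15 and 5.93 (si-N6AMT1), and the medians rose with each further library that called a region. The median pileup at a member's summit was 21 and 22 fragments for control and 24 for each si-N6AMT1 library. Relative to control replicate 1, the depths recovered from the lists were 1.32, 1.38 and 1.5 for the other libraries, with the si-N6AMT1 libraries deepest.

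**Figure D1:**
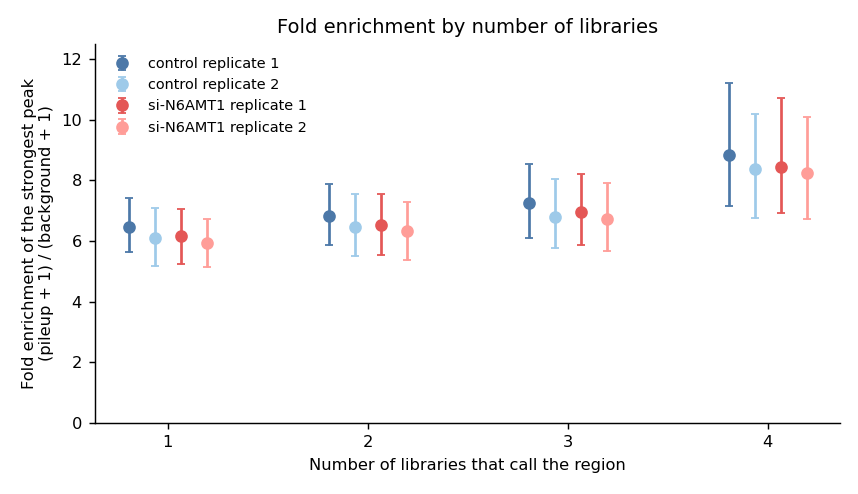
Fold enrichment of the strongest peak of a region (vertical axis, (pileup + 1) / (background + 1)) against the number of libraries that call the region (horizontal axis), with 1 colour per library. Points are medians and bars span the quartiles; in each library the median is highest for regions called in all 4, at 8.25 to 8.84.

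The threshold of the peak caller was a −log10 p of about 5. The weakest library of a member had a median −log10 p of 13.5, and 9388 members (77.4%) reached 10 in all 4 libraries. Only 104 members had a weakest value under 6, the lowest being 5.01. The 9404 regions called in 3 libraries stood just outside, with a median weakest −log10 p of 10.7 over the libraries that called them. Control replicate 1, the shallowest library, missed 3145 of them, control replicate 2 missed 2586, and the si-N6AMT1 libraries missed 1854 and 1819.

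Members were short and their summits lay close together. The median width was 714 bp, from 390 to 45603 bp, and 361 members (2.98%) held more than 1 peak of a library. Together they covered 10.4 Mb, or 0.341% of these chromosomes. The median distance between the summits of a member in 2 libraries was 52 bp within control, 54 bp within si-N6AMT1 and 52 to 53 bp across the groups. Summits of all 4 libraries lay within 200 bp of each other in 8498 members (70.1%) and within 50 bp in 1966 (16.2%).

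The 5 widest members were long stretches called as 1 or more peaks in a library. The widest, at chr21:10773795-10819397, was intergenic, and its strongest peaks had fold enrichments of 17.6 and 15.04 (control) against 13.4 and 12.7 (si-N6AMT1). Next came chr21:10830215-10860798, with 10.6, 10.1, 9.17 and 8.91. The member at chr2:89850152-89880262 had 12.53, 9.50, 10.5 and 11.3, and the member at chr10:42790354-42817087 had 12.2, 11.4, 11.2 and 12.7. In the member at chr20:29804032-29829399 they were 15.7, 14.0, 11.2 and 9.95. None of these 5 passed the test of the groups given further on, with adjusted p from 0.441 to 0.999 (limma). Their 4 library summits were spread over 12327 to 23713 bp. The 4 values of such a member were thus not all read at 1 site, and the test does not compare 1 site.

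The sequence at the summits was compared with 3 backgrounds: peaks that no other library called, windows 1000 bp to each side of the member summits, and windows every 2000 bp along the genome. Sequence was not used to choose the members. Shares were taken in 200-bp windows in each library, and the 4 differences were tested with an exact two-sided sign-flip test, whose smallest p is 0.125. The libraries share the same members, so the 4 differences are not independent.

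Windows rich in 1 pair of letters were counted first. Windows with at least 80% A and G, or C and T on the other strand, made up 26.3 ± 0.155% of member summits (SD, n = 4 libraries). They made up 6.94 ± 1.37% of summits called in 1 library, 0.486% of flanking windows and 0.162% of genome windows. Windows with at least 80% A and C, or G and T, made up 8.90 ± 0.150% of member summits, against 0.346 ± 0.0669% of summits called in 1 library and 0.0418% of the genome. The differences from peaks of 1 library were 19.3 and 8.55 percentage points, in the same direction in 4 of 4 libraries (p = 0.125 each, exact sign-flip test, n = 4). Among peaks of middling strength, the middle of 3 equal bins of −log10 p in their list, they were 10.98 and 3.69 points. With at least 90% of a window in 1 pair, the difference for A and C was 0.908 points. Across the regions called in 1, 2, 3 and 4 libraries, the mean share of the A and C kind went from 0.346% to 0.825%, 1.74% and 8.90%, and that of the A and G kind from 6.94% to 12.003%, 19.1% and 26.3%. These measures were added after the sequences had been seen.

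Repetition along the window was counted too, also as an added measure. A window was called tandem where at least 60% of its bases equal the base 1 period before, for a period of 2 to 50 bp. Tandem windows made up 37.8 ± 0.214% of member summits (SD, n = 4), 6.46 ± 1.25% of summits called in 1 library, 2.11% of flanks and 0.557% of the genome (difference from peaks of 1 library 31.3 percentage points, p = 0.125, exact sign-flip test, n = 4). Among peaks of middling strength the shares were 25.7% and 8.70%, a difference of 17.03 points. Taken once per member at its median summit, 4731 members (39.0%) were tandem. The period was 4 bp in 2105 of them (44.5%), 2 bp in 445, 6 bp in 186, 8 bp in 186 and 3 bp in 182. A period of 7 to 50 bp, as in minisatellites, was found in 1725 members (14.2%).

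Simple dinucleotide repeats were measured with at least 6 units. GA repeats lay in 9.77 ± 0.149% of member windows (SD, n = 4), against 5.31 ± 0.965% of windows called in 1 library and 0.434% of the genome (difference 4.46 points, p = 0.125, exact sign-flip test, n = 4). Among peaks of middling strength this difference was 0.471 points (p = 0.375), and with at least 10 units it was 0.0279 points (p = 1, exact sign-flip tests, n = 4). CA repeats lay in 9.33 ± 0.0781% and 7.78 ± 2.35%, a difference of 1.56 points that held in 3 of 4 libraries (p = 0.375, exact sign-flip test, n = 4). It turned to -2.64 points among peaks of middling strength. AT repeats were rare, at 0.167% of member windows, 0.540% of windows called in 1 library and 0.512% of the genome. Their difference of -0.373 points had the same direction in 4 of 4 libraries (p = 0.125, exact sign-flip test, n = 4).

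**Figure D2:**
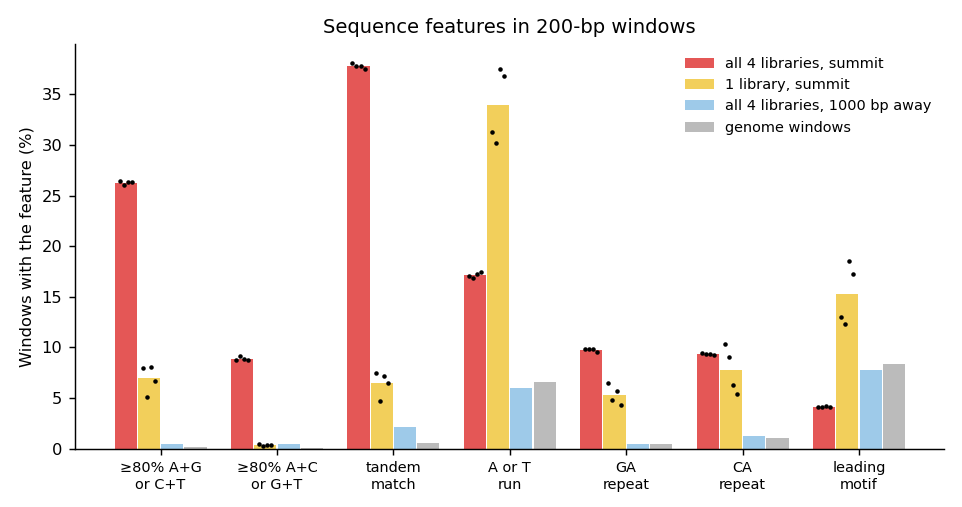
Share of 200-bp windows with each sequence feature (vertical axis, percent) at member summits, at summits called in 1 library, 1000 bp from member summits and along the genome. Bars are means over 4 libraries (the genome bar is 1 value), and dots are the libraries; 2-letter and tandem windows are highest at member summits, runs of A or T and the motif at summits called in 1 library.

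Runs of A and the study's leading motif went the other way. A run of at least 10 A or T lay in 17.2 ± 0.279% of member windows (SD, n = 4) and 33.9 ± 3.74% of windows called in 1 library, a difference of -16.8 points (p = 0.125, exact sign-flip test, n = 4). Flanks held 5.97% and the genome 6.602%, both below the share in members. The motif CAGGCTGG, searched on both strands, lay in 4.15 ± 0.0600% of member windows, 15.3 ± 3.05% of windows called in 1 library, 7.73% of flanks and 8.38% of the genome. The difference was -11.1 points from peaks of 1 library and -3.59 points from the flanks (p = 0.125 each, exact sign-flip test, n = 4). Among peaks of middling strength, the difference from peaks of 1 library was -9.52 points for the motif and -15.5 points for A runs.

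In 100-bp windows, the motif dipped at the centre of the members. It lay in 1.10% of windows on the summit, 4.38% of windows 300 bp to one side and 3.76% of windows at 1000 bp. Around summits called in 1 library it lay in 6.23% of windows on the summit and 6.97% at 100 bp. The A and G kind of window fell from 28.9% on the member summit to 7.003% at 200 bp and 0.695% at 1000 bp.

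**Figure D3:**
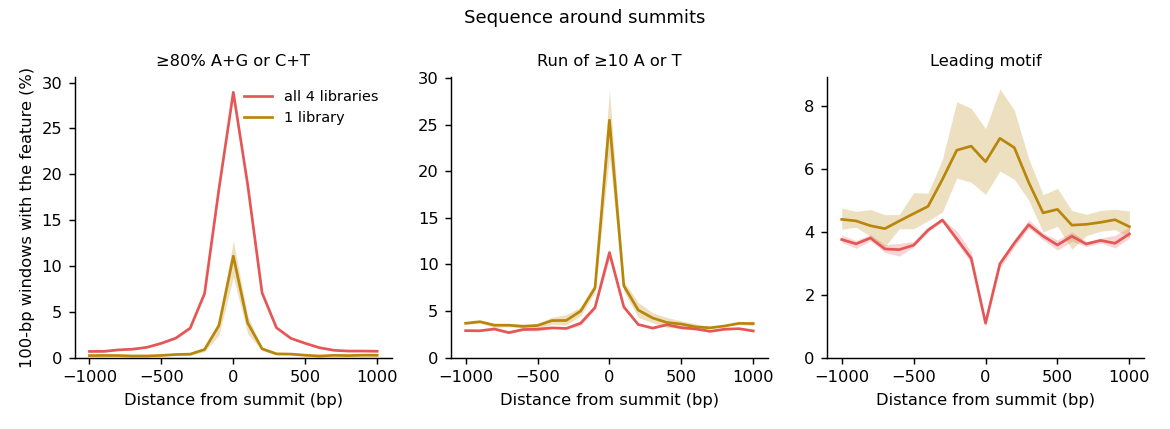
Share of 100-bp windows with 3 features (vertical axes, percent) against distance from the summit (horizontal axes, bp), for members and for regions called in 1 library. Lines are means over the 4 libraries and bands span their range; at the member summit the A and G kind peaks at 28.9% and the motif falls to 1.10%.

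A summary of all these features is the number of distinct 4-letter words in the 200-bp window, a measure that was also added. It was 70.9 ± 0.136 in members (SD, n = 4), 100.4 ± 1.09 in peaks of 1 library, 115 in flanks and 118 in the genome. The difference of -29.6 words from peaks of 1 library had the same direction in 4 of 4 libraries (p = 0.125, exact sign-flip test, n = 4). Among peaks of middling strength it was -16.8 words, and in 100-bp windows -14.7 words. GC content was 39.3 ± 0.0333% in members, 37.7 ± 0.589% in peaks of 1 library and 42.1% in flanks. Its difference from peaks of 1 library was 1.57 points, and 0.288 points among peaks of middling strength (p = 0.625, exact sign-flip test, n = 4). In all, 10 features were compared with peaks of 1 library and with flanks.

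Among the members, fold enrichment was lower where the sequence was most varied, but not highest where it was least varied. In control replicate 1 the median fold was 10.9 in members with 41 to 60 distinct words and 6.93 in those with over 100. The corresponding values were 9.73 and 6.73 in control replicate 2, 10.3 and 6.75 in si-N6AMT1 replicate 1, and 9.60 and 6.47 in si-N6AMT1 replicate 2. With up to 20 words the medians were 10.1, 9.18, 9.94 and 9.21, below those at 41 to 60 words in each library. Spearman's rho between words and fold over the 12124 members was -0.51, -0.46, -0.54 and -0.50, as a description over regions that share a library and a base composition.

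**Figure D4:**
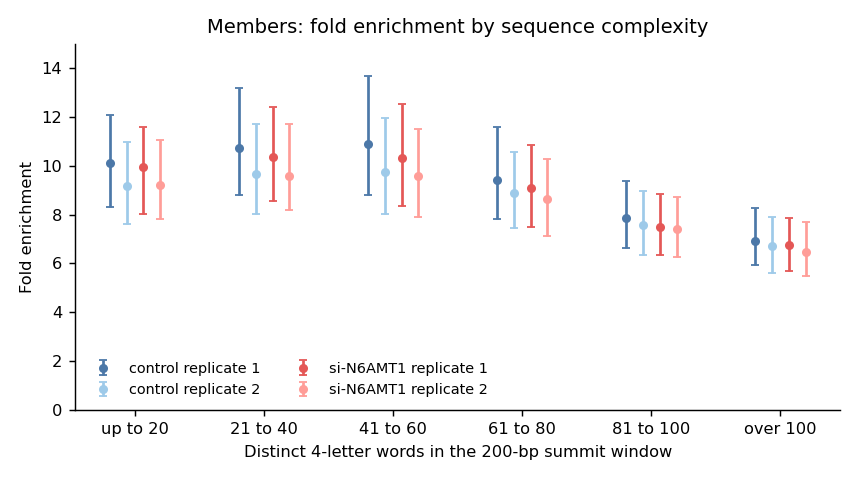
Fold enrichment of members (vertical axis, (pileup + 1) / (background + 1)) by the number of distinct 4-letter words in the summit window (horizontal axis), with 1 colour per library. Points are medians and bars span the quartiles; in every library the medians are lowest above 100 words.

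The A and C kind had the strongest peaks. The 1110 members of this kind had a median fold of 12.2 and 10.7 (control) and 11.6 and 10.6 (si-N6AMT1), against 8.71, 8.13, 8.28 and 8.01 in the other members. The 470 members with the motif had 7.39, 6.95, 7.22 and 6.81. Of the 100 members with the highest fold in their weakest library, 57 were of the A and C kind, 18 of the A and G kind, 71 were tandem and 0 held the motif. Of the 1000 weakest, 25% held a run of A or T, 8.5% the motif and 0.7% were of the A and C kind. In 3793 members (31.3%) none of these features was found, and their median GC content was 33.0%.

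By genomic element, member summits lay mostly outside genes and in introns. Introns held 52.2 ± 0.0421% of member summits (SD, n = 4) and 54.9 ± 0.629% of summits called in 1 library, against 52.8% of the genome. Intergenic sequence held 44.3 ± 0.00952% and 42.4 ± 0.881%, against 40.8%. Promoter windows, within 1000 bp of a start site, held 2.71 ± 0.0499% and 1.94 ± 0.378%, against 3.18%. The differences of -2.64, 1.84 and 0.762 points had the same direction in 4 of 4 libraries (p = 0.125 each, exact sign-flip test, n = 4). Exons held 0.808% of member summits and 0.767% of summits called in 1 library, against 3.15% of the genome (p = 0.375, exact sign-flip test, n = 4).

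Members were more frequent within 5 Mb of a chromosome end than peaks of 1 library. Within 5 Mb of an end lay 11.9% of member summits, 5.23 ± 0.735% of summits called in 1 library (SD, n = 4) and 7.08% of the genome. The difference of 6.69 points held in 4 of 4 libraries (p = 0.125, exact sign-flip test, n = 4). Between 1 and 5 Mb from an end there were 6.73 members per Mb, against 4.5 in the last 1 Mb, 4.15 between 5 and 20 Mb and 3.69 beyond 20 Mb. From 1 to 5 Mb and beyond 20 Mb, 22.8% and 5.72% of members were of the A and C kind. Distance to an end was a measure added after the data were seen.

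Chromosomes differed in how many members they held. The density was lowest on chromosome 18, at 0.833 members per Mb, and highest on chromosome 20, at 7.50 per Mb. Of all regions on chromosome 22, 28.5% were members, and of those on chromosome 4, 10.4%. Copy number, which differs between chromosomes in a cancer line, was not analysed here.

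Of 20090 protein-coding genes, 3208 (16.0%) held a member in the gene body, and the share followed gene length. It was 1.41% for genes under 10 kb and 68.3% for genes over 300 kb, while the density was 3.02 and 3.94 members per Mb of gene. CDH4, which encodes a cadherin of cell adhesion, held the most members, 30 of its 38 regions. PTPRN2, a receptor-type phosphatase family member of secretory vesicles, held 29 of 45, and NAALADL2 held 29 of 76. KCNMB2, a subunit of a calcium-activated potassium channel, held 20 of 42, of which 16 also lie in ENSG00000275163, a gene inside its span. DLG2, a synaptic scaffold, held 20 of 123. MECOM, a transcription factor gene, held 16 of 43, the adhesion genes CDH18 and CNTN5 held 16 of 66 and 16 of 62, and CAMTA1, a transcription activator, held 15 of 28.

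Among genes with at least 4 members, the densest was ELN, the gene of elastin, with 4 of 4 regions and 94.97 members per Mb. C3, a central complement component, held 4 of 5, and WNT3A, a secreted Wnt ligand, held 4 of 6. NACC2 held 5 of 9 and CELF5, an RNA-binding protein gene, held 4 of 6.

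The genes of the study's question were read from lists. N6AMT1 itself held 1 region, a member in an intron at chr21:30249346-30250147. Of its 200-bp summit window, 97% was A and G or C and T. Its values of 19.9 and 17.1 (control) overlapped those of 19.5 and 20.2 (si-N6AMT1) (log2 change 0.10 ± 0.26 SE, adjusted p = 0.932, limma).

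Of 11 enzymes and readers of adenine methylation, 2 (18.2%) held a member, against 16.0% of all protein-coding genes. The other was FTO, an RNA demethylase, with 1 of its 6 regions at fold enrichments of 4.92 and 6.99 (control) against 9.197 and 8.80 (si-N6AMT1) (adjusted p = 0.290, limma). Both si-N6AMT1 values exceeded both control values there, as in 16.9% of all regions tested. METTL3, METTL14, METTL4, WTAP and YTHDF2 held regions but no member, and ALKBH1, ALKBH4, ALKBH5 and YTHDC1 held no region. Of 7 cell cycle inhibitors named by the study, 1 (14.3%) held a member. This was RB1, the retinoblastoma gene, with 3 of its 12 regions. The strongest of them lay in the annotated spans of both RB1 and RCBTB2 and held a CA and a GA repeat. It did not pass the test (log2 change 0.06 ± 0.26 SE, adjusted p = 0.963, limma). CDKN1A, REST, LATS2, TIPRL and MDM2 held regions but no member, and BTG1 held none.

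Of 8 ERBB receptors and neuregulins, 5 (62.5%) held a member, against 16.0% of all protein-coding genes. Their median length was 195 kb, and of all genes of 100 to 300 kb, 42.1% held a member. Their density was 2.21 members per Mb, against 4.04 over all protein-coding genes. EGFR, a growth factor receptor, held 4 of its 8 regions. The strongest, in an intron at chr7:55270639-55272909, was a CA repeat with fold enrichments of 26.3 and 23.3 (control) against 15.1 and 16.8 (si-N6AMT1). Both control values exceeded both si-N6AMT1 values, as in 24.3% of all regions tested, and the change did not pass the test (log2 change -0.63 ± 0.26 SE, adjusted p = 0.271, limma). The pileup was 64 and 67 fragments against 76 and 70, over local backgrounds of 1.47 and 1.92 against 4.09 and 3.22, and the summit of si-N6AMT1 replicate 2 lay 1264 bp from the median summit. ERBB4 held 6 regions and no member, and ERBB2 and ERBB3 held no region. The neuregulin genes NRG1, NRG2, NRG3 and NRG4, which encode ERBB ligands, held 1, 1, 2 and 1 members of 12, 5, 20 and 6 regions.

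Of 13 steroid receptors and luminal factors, 3 (23.1%) held a member, against 16.0% of all protein-coding genes. PGR, the progesterone receptor, held 2 of 6 regions, ESR2 held 1 of 9, and KRT8, a luminal keratin, held 1 of 2. The KRT8 window was 100% C and T or A and G, with fold enrichments of 10.4, 9.66, 10.96 and 8.54. ESR1 and NR3C1 held 6 and 5 regions and no member. FOXA1, GATA3, SPDEF, XBP1, TFAP2A, TFAP2B and KRT18 held none. Of 14 very long genes of common fragile sites, 11 (78.6%) held a member, 70 members in all. Of all protein-coding genes over 300 kb, 68.3% held a member. DLG2 held 20 of these, CSMD1 9, CNTNAP2 and CTNNA3 8 each, LSAMP 7 and LRP1B 5, while FHIT and DMD held none. The densities over these lists were 2.21 to 5.77 members per Mb, against 4.04 over all protein-coding genes.

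The last comparison asked whether the enrichment of members changed after N6AMT1 knockdown. By the rule, a region that lost its peak in a library is not a member, so only changes among regions still called can be seen. Members took 40.3% and 36.8% of the peaks of the control libraries and 31.6% and 30.1% of those of the si-N6AMT1 libraries. The difference was -7.71 points (p = 0.333, exact two-sided permutation test, n = 2 per group), the smallest p with 2 libraries against 2. The number of members is the same for each library, so this share falls as a list grows longer. With equal numbers of peaks the difference was -0.0946 points. With list lengths made equal, the rule nearly fixes this value in advance, so it says nothing about the groups.

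The median log2 fold enrichment of members was 3.14 and 3.07 (control) against 3.08 and 3.04 (si-N6AMT1). The groups overlapped, with a difference of -0.04 (p = 0.667, exact two-sided permutation test, n = 2 per group). Without control replicate 1, and over the 15270 regions called in the other libraries, the difference was 0.01. Over the members themselves, control replicate 2 alone still stood above the si-N6AMT1 mean, at 3.068 against 3.062. With both groups in full, the difference was -0.15 as a plain ratio of pileup to background and -0.17 as pileup divided by relative depth. Both exact permutation tests gave p = 0.667.

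Single members were tested with limma on log2 fold enrichment over 12132 regions with a value in all 4 libraries, of which the 12124 members are nearly all. At an adjusted p under 0.05, 6 members were higher in si-N6AMT1 (0.0495% of those tested) and 23 were lower (0.19%), or 29 in either direction (0.239%). Unadjusted p under 0.05 was found for 1455 members (12% of those tested). Both si-N6AMT1 values lay above both control values in 2054 members (16.9%) and below them in 2943 (24.3%). Since the members are almost the whole of what was tested, these shares are also the background. Without control replicate 1, control replicate 2 or si-N6AMT1 replicate 2, 0 regions passed, with unadjusted p under 0.05 for 8.81%, 11.1% and 7.29% of those tested. Without si-N6AMT1 replicate 1, 0 were higher and 1 was lower. With the pileup divided by relative depth, 0 regions passed, with unadjusted p under 0.05 for 856 regions (7.06%).

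The region with the smallest p in each direction is shown with the longest exact repeat of a 4-bp unit in capitals.
chr7:696169-696268: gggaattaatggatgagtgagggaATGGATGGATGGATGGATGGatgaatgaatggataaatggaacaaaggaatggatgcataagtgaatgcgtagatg
chr1:16002262-16002361: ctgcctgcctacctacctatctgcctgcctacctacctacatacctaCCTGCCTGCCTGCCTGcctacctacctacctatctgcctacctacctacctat
The member in an intron of PRKAR1B, a regulatory subunit gene of protein kinase A, had fold enrichments of 5.29 and 4.08 (control) against 12.01 and 10.7 (si-N6AMT1) (log2 change 1.29 ± 0.26 SE, adjusted p = 0.00297, limma). The pileup was 16 and 15 fragments against 28 and 26, over local backgrounds of 2.21 and 2.92 against 1.41 and 1.53. The intergenic member at chr1:16001891-16002681 had 11.4 and 12.9 (control) against 5.29 and 4.75 (si-N6AMT1) (log2 change -1.27 ± 0.26 SE, adjusted p = 0.00297, limma). The pileup was 23 and 37 fragments against 23 and 20, over local backgrounds of 1.11 and 1.95 against 3.54 and 3.42.

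Other members higher in si-N6AMT1 lay in introns of MYBPC2, a muscle myosin-binding protein gene, at 7.32 and 5.50 against 14.9 and 13.1, and of CCDC192, at 6.77 and 5.22 against 12.97 and 11.3. Intergenic ones lay at chr8:134754464-134755104, at 7.52 and 4.75 against 14.5 and 14.6, and at chr13:75301134-75301796, at 6.602 and 4.35 against 8.70 and 14.2. Members lower in si-N6AMT1 lay in introns of PHKA1, a phosphorylase kinase subunit gene, at 11.1 and 11.8 against 5.03 and 4.48, and of MAGI1, a junction scaffold gene, at 10.7 and 13.5 against 5.42 and 4.98. An intron of a noncoding gene held the member at chr7:149700105-149701520, at 31.8 and 24.8 against 15.8 and 9.14, and the member at chr5:14635299-14635922 was intergenic, at 13.7 and 10.5 against 4.57 and 5.97. All 29 changed by 1.013 to 1.29 on the log2 scale.

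Both terms of the ratio moved in these regions. In 23 of the 23 members that were lower, both si-N6AMT1 backgrounds, each taken relative to the genome-wide level of its library, exceeded both control backgrounds by more than 0.01 on the log2 scale. This held for 36.4% of all members. The depth-scaled pileup was lower in both si-N6AMT1 libraries in 19 of the 23, against 30.2% of all members. Of the 6 members that were higher, 5 had both si-N6AMT1 backgrounds below both control backgrounds, against 32.3% of all members, and 3 had both pileups above, against 4.45%. The median changes were 0.83 in background and -0.68 in pileup for the members that were lower, and -0.92 and 0.37 for those that were higher. Over all members they were 1.2e-06 in background and -0.18 in pileup. Fold enrichment has the pileup as its numerator and the background as its divisor. Links between the change in fold and the change in either term are therefore expected by construction.

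**Figure D5:**
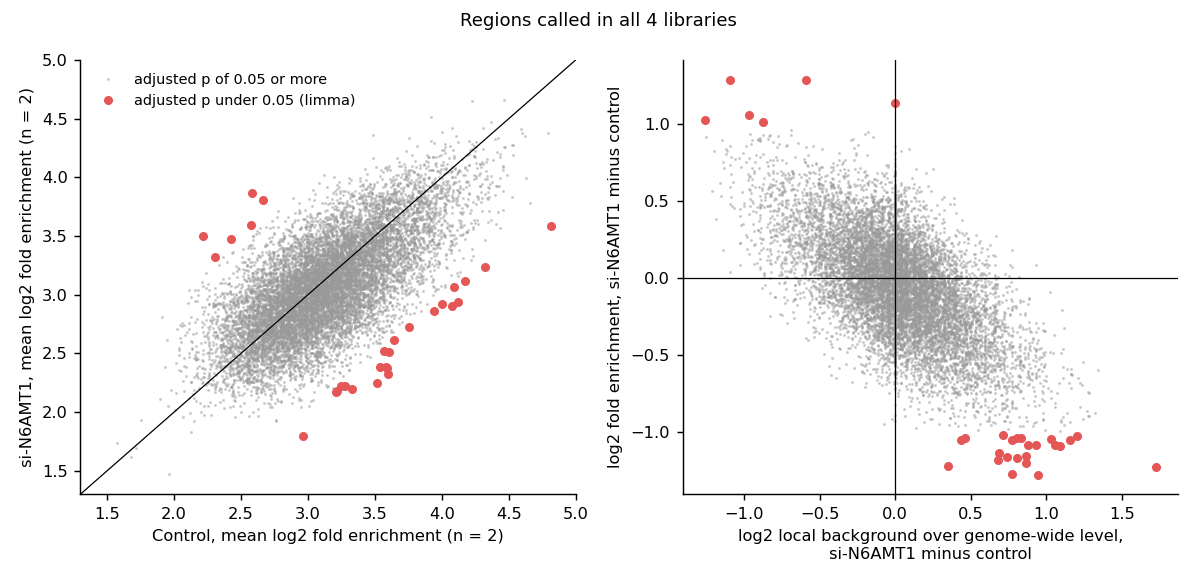
Left, mean log2 fold enrichment of each member in si-N6AMT1 (vertical axis, n = 2) against control (horizontal axis, n = 2), with the line of equal values. Right, the log2 change in fold enrichment (vertical axis) against the log2 change in local background over the genome-wide level (horizontal axis), both si-N6AMT1 minus control; red points are the 29 members with an adjusted p under 0.05 (limma), and the 23 lower ones all lie to the right of 0.

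The local background was nearly the same in the libraries of a group. In members whose summits lay within 10 bp of each other, Pearson's r of the log2 background was 0.994 within control (n = 1523 members) and 0.996 within si-N6AMT1 (n = 1655), against 0.706 to 0.729 across the groups (n = 1484 to 1567). The 2 values lay within 0.05 on the log2 scale in 85.9% and 87.4% of these members within groups and in 19.04% to 21.3% across them. Each group had 1 input library. The fold enrichments of replicates are thus not independent in their divisor, and limma's p-values, which take them as independent, are too small by an amount that was not tested. For the pileups at the same members, r was 0.700 and 0.751 within groups and 0.687 to 0.731 across them. For log2 fold enrichment over all members, it was 0.683 and 0.697 within groups and 0.566 to 0.616 across them.

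One of the 23 members that were lower is named after its values were seen. The region at chr1:568540-569206 was intergenic, and 54.9% of its 31-base words occur in the mitochondrial genome, more than for any other member. Its fold enrichments were 13.97 and 11.2 (control) against 5.53 and 6.74 (si-N6AMT1) (adjusted p = 0.0329, limma). The pileup was 31 and 32 against 21 and 22, and the background 1.29 and 1.95 against 2.98 and 2.41. Reads from the mitochondrial genome and from this copy can be exchanged in alignment, so its values are uncertain.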

How the data were processed

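Peaks of 6mA-IP-seq were analysed in 4 immunoprecipitated libraries. Per the study's methods, the authors used Trimmomatic to discard reads of low quality, mapped the rest to hg19 (Bowtie2 2.3.5), removed duplicates (SAMtools 1.9) and called peaks per library with MACS2 at p of 1e-05. Which input served each call is not given in the sources used here. The deposited fold is the ratio of pileup to local background, each with 1 added. The deposited −log10 p and −log10 q belong to the summit, and the deposited score is 10 times −log10 p. Pileup and background were recovered from fold and −log10 p, for at least 99.98% of peaks within 0.001 of the listed −log10 p. Depth was taken as the lowest background of a library divided by its smallest peak width.

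In each region the peak of highest −log10 p stood for a library. limma 3.58.1 (R 4.3.3) with Benjamini-Hochberg adjustment, exact permutation and exact sign-flip tests were used. On simulated data for this comparison of 12124 regions, limma called 23 of 100 regions changed 2-fold, 80 of 100 changed 3-fold and 14 of 11924 unchanged ones. The simulated pileups varied by counting noise alone (Poisson) and were divided by the real local backgrounds, which differ between the groups. Unchanged thus means unchanged in pileup, and these counts give no error rate or power for the real data. Sequence came from GRCh37 and genes from GENCODE v44 lifted to GRCh37, with samtools 1.23.1, Python 3.11.15, numpy 2.4.6, pandas 2.3.3, scipy 1.17.1, pysam 0.24.0 and matplotlib 3.10.9.

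The members, gene lists and tests were chosen with earlier results of these data known. Named regions were the 10 with the highest weakest fold, the 5 of smallest limma p in each direction, the 5 widest and the strongest of each sequence kind. Named genes were the 10 with most members, the 5 densest with at least 4, and the listed genes. The sequence features on letter pairs, tandem repeats and 4-letter words and the distance to chromosome ends were added later. Alternatives were a stricter −log10 q (5 or more), lists of equal length, other rules of merging, windows, repeat lengths, promoters and scaling, fits blocked on replicate number, and fits without 1 library. Some genes and sequences are not reported here. No intervals are given for single peaks. The limma standard error was the same in every named region, 0.26, and equal to the residual SD of the fit. limma's p-values therefore rest on that pooled spread and not on the spread of a region's own libraries. Permutation p-values rest on 2 libraries a group, and the sign-flip tests of sequence and position on 4 libraries.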

Additional observations from a re-analysis of the deposited data

How the results depend on the processing

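Across the alternatives, 233 values kept their direction or stayed within 1.5 times the count, 20 moved and 4 reversed. The share of CA repeats against peaks of 1 library reversed, to -0.276 points with 100-bp windows, -2.59 with 15-base runs and 10 repeat units and -2.64 in the middle of 3 bins of −log10 p. The difference in median log2 fold reversed without control replicate 1, over regions called in the other 3 libraries. It ranged from -0.0775 to 0.0149 when 1 library was left out. Members that passed limma then numbered 0 higher and 0 to 1 lower, with the lone library of a group taken to vary like the other group. An adjusted p under 0.1 gave 44 higher and 119 lower, equal numbers of peaks 2 higher and 17 lower, the plain ratio 44 and 305, depth-scaled pileup 0 and 0, and libraries centred on their median 26 and 27. Centring moved the share of lower calls from 79.3% to 50.9%, and the plain ratio moved the median change of all regions to -0.16. The causes were not tested. With a −log10 q of at least 5, summit distances were 51.5 bp within and 51.4 bp across groups. Same-numbered replicates had a correlation of deviations of 0.0140 across members. A shift shared by all members does not enter this correlation, so it cannot decide whether the numbers pair libraries. With a replicate block, 27 members were higher and 80 lower, including all 29 of the fit without it, and the difference in median log2 fold was -0.04 (p = 0.5, exact sign-flip test of 2 pairs). Regions called in all libraries numbered 8498 with summits within 200 bp to 12132 with gaps of up to 100 bp, and 13936 to 15270 where only 3 libraries had to call them. Median summit pileups were 21 to 24 fragments per library, so the fold of many members rests on few fragments.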
